A study of Mus musculus with 6 samples.

Results

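The nuclear-encoded subunits of the mitochondrial respiratory chain and ATP synthase were followed in mouse embryonic stem (ES) cells with and without 2 subunits of the human silencing hub (HUSH), a complex that keeps retroelements and some genes silent. The members are the genes of the deposited table whose symbols belong to the Nduf, Sdh, Uqcr, Cox and Atp5 subunit families. Of 107 symbols of that form, 14 pseudogene symbols and the relatives Cox7b2, Cox6b2 and Ndufb11b were left out, and the subunits Ndufab1 and Cyc1 fall outside the number patterns of the symbols, which gave 90 members among 57180 genes. They comprise 40 genes of complex I, 4 of complex II, 8 of complex III, 19 of complex IV and 19 of complex V. Pseudogenes without such a symbol remain: the GENCODE M21 annotation classes Ndufb4c, Ndufs6b, Ndufa11b and Cox6c2 as processed pseudogenes. It classes Ndufb1 as a noncoding RNA. Ndufa4 and Ndufa4l2 carry complex I names and were placed with complex IV, where the NDUFA4 protein is found.

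RNA was sequenced from 3 wild-type (WT) libraries and from 3 libraries of cells lacking both Mphosph8, the gene of MPP8, and Tasor (double knockout, dKO). All 6 were ES cells of the C57BL/6 strain, and the labels give no treatment. They do not say whether replicates were separate cultures or how many clones the dKO cells represent, so p-values measure the spread between these libraries. The question here is how expression of respiratory genes compares between the genotypes.

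The respiratory chain moves electrons along the inner mitochondrial membrane and pumps protons, and complex V uses the proton gradient to make ATP. Complex I takes electrons from NADH, complex II from succinate, complex III passes them from coenzyme Q to cytochrome c, and complex IV passes them to oxygen. Complex II is encoded wholly by nuclear genes, while the other complexes combine nuclear-encoded subunits with subunits made from mitochondrial DNA. Naive mouse ES cells use both respiration and glycolysis, and the primed state that follows relies more on glycolysis.

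The labels held up in the knocked-out genes, with 119 to 147 CPM (counts relative to the TMM-scaled library total) of Mphosph8 in WT and 0.0484 to 0.207 CPM in dKO, and with 141 to 201 CPM of Tasor in WT and 8.70 to 10.7 CPM in dKO. Total estimated counts ran from 18384774 to 24910498. Ribosomal protein genes took 2.78% of the counts of WT replicate 2 and 3.55% to 4.94% of those of the other libraries, and mitochondrial genes took 2.29% and 1.34% to 1.63%. The 6 ES cell markers summed to 1695 to 2501 CPM in WT and 2062 to 2439 CPM in dKO. The 7 trophoblast markers summed to 242 to 358 CPM in WT and 22.6 to 27.0 CPM in dKO, with Cdx2 under 1 CPM throughout, and the 7 fibroblast markers to 27.9 to 38.7 and 42.0 to 44.9 CPM. The 6 primitive endoderm markers summed to 5.68 to 7.71 and 4.44 to 5.10 CPM, with Gata6, Sox17, Sox7 and Afp under 1 CPM. These differences in markers run with genotype, and their part in the results was not tested. In bulk RNA, fewer cells of a type and less RNA per cell cannot be told apart. Both knocked-out genes lie on chromosome 14, and 0 members do by the GENCODE M21 annotation, which matched 89 of the 90 members.

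Most respiratory chain mRNAs did not differ between dKO and WT by the test, and the few that did were lower. Of 83 members with enough counts for a test, 8 were lower in dKO, 0 were higher and 75 were not called (edgeR's quasi-likelihood test, Benjamini-Hochberg adjusted p under 0.05 over 15714 genes). Over all genes tested, 34.3% were called, 17.9% lower and 16.4% higher, against 9.64% of the members. At an unadjusted p under 0.05 there were 10 members, all with a negative log2 fold change. At least 34.3% of all genes tested pass that threshold, because an adjusted p is never below its p. DESeq2 called 9 members lower and 0 higher (35% of all genes in either direction). The median log2 fold change was -0.08 over the members and -0.02 over all genes tested, but the members' median was 0.12 without WT replicate 3, 0.01 without dKO replicate 2, -0.29 without WT replicate 2 and -0.26 without dKO replicate 3. In 9 members every dKO library lay below every WT library, where this held for 25% of all genes tested, and in 0 members did every dKO library lie above every WT library, where it held for 24.2%. The number of calls rests on single libraries. It was 13 without WT replicate 2 (42.2% of all genes), 2 without WT replicate 3 (30.6%) and 5 without WT replicate 1 (26.9%), and it was 0 without dKO replicate 1 (22.3% of all genes; 6 members at an unadjusted p under 0.05), 0 without dKO replicate 2 (23.7% of all genes; 6 members) and 4 without dKO replicate 3 (25.5%). With library totals in place of TMM factors it was 4 (34.5%). By the adjusted p of the authors' deposited table, 7 of the 83 members passed 0.05, all lower and 6 of them among the 8 called here, where 32.6% of the same 15714 genes passed.

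**Figure D1:**
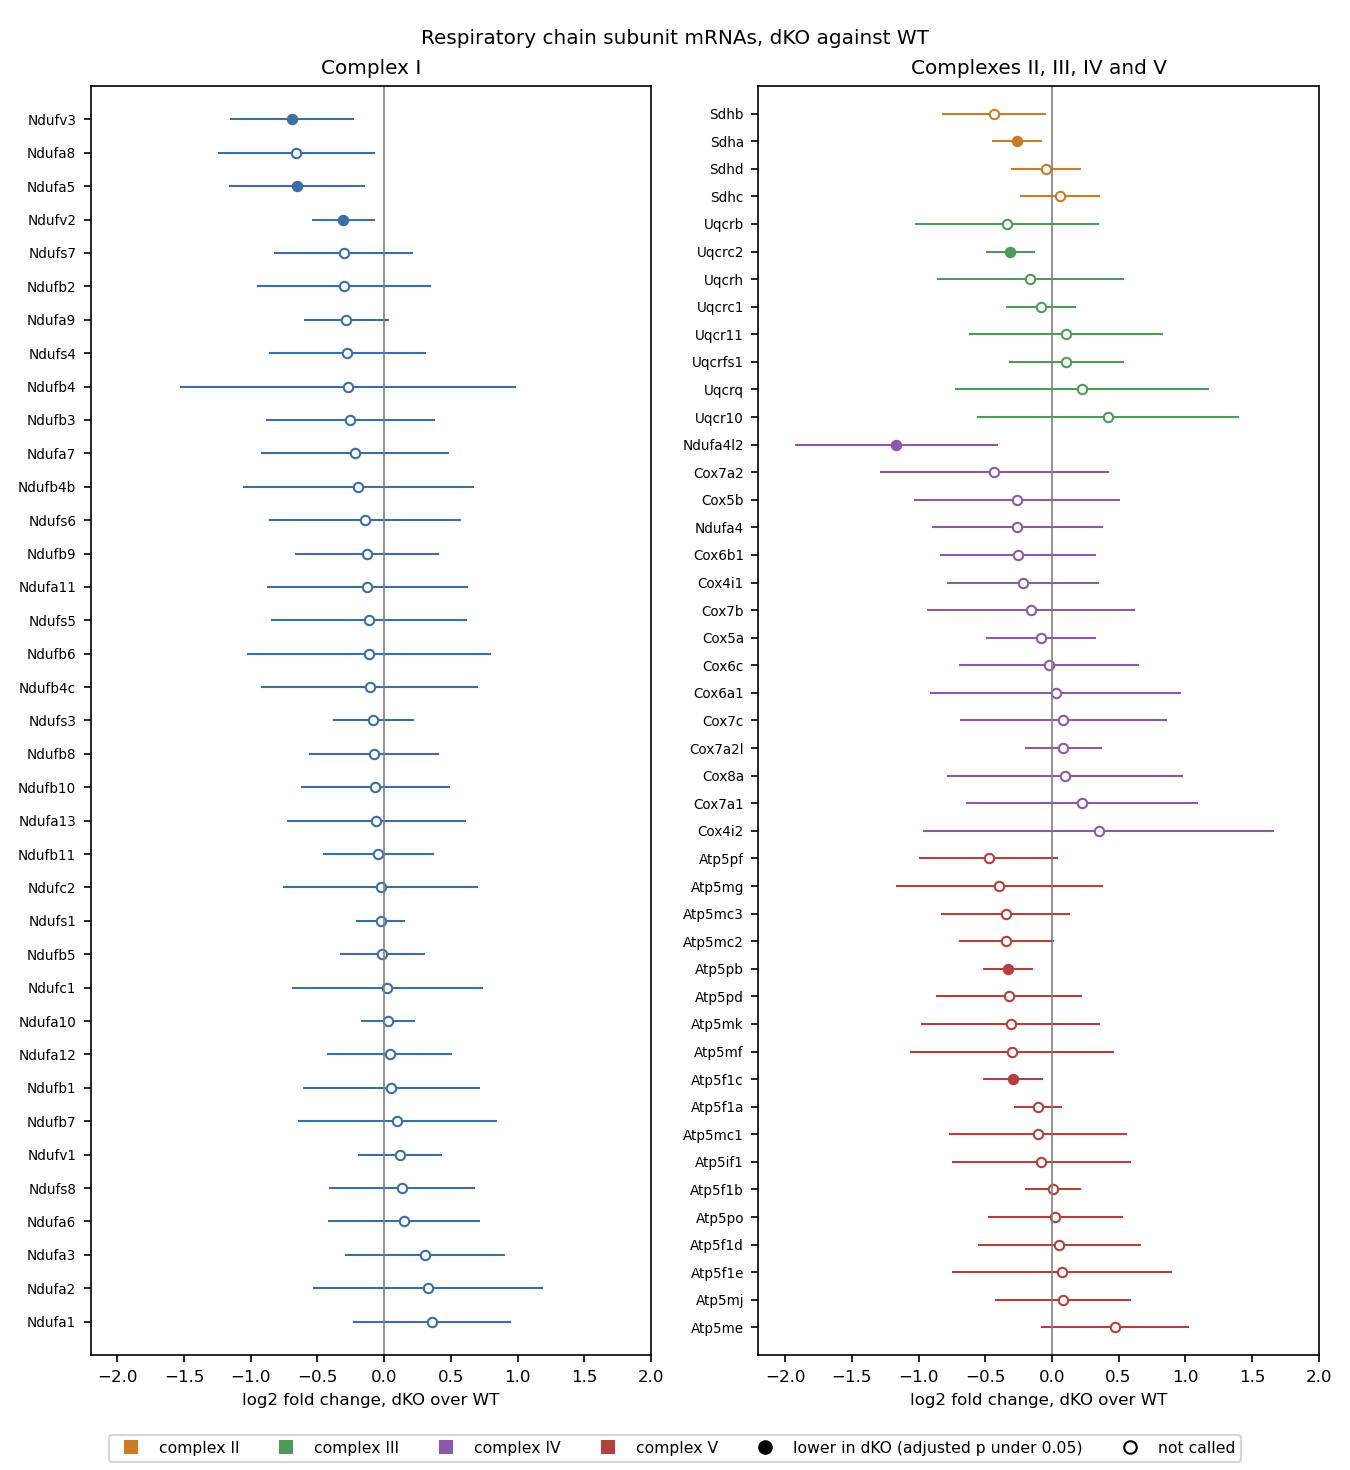
Log2 fold change of the tested members, all but 1 of them drawn, in dKO over WT with its 95% confidence interval, by complex. Filled points are the 8 members called lower, the others are open, and the widest intervals belong to low or short transcripts such as Ndufb4 and Cox4i2.

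The 8 lower members were spread over all 5 complexes. Promoters of 4 of them hold a binding motif of NRF1 or YY1, factors known to activate respiratory genes. Motifs searched here were also found for 35 of 60 members that were not called. Promoter windows of RefSeq (GRCm38.p6, from 250 bases before to 50 after a gene's start) were found for 67 members, 6 of the lower ones among them. The motifs searched on both strands, in any window of a gene, were GCGCA, any base, then GCGC for NRF1, CCGGAAG for ETS factors such as GABPA, and AAGATGGC for YY1, and overlaps between them were allowed. At least 1 of them was found for 39 of the 67 members (58.2%) and for 16.4% of 27025 genes with windows. NRF1's motif was found for 26.9% of the members and 5.2% of genes, that of ETS factors for 25.4% and 9.9%, and that of YY1 for 14.9% and 3.2%. A match was found for 4 of 6 lower members and for 35 of 60 members that were not called. The 120 bases upstream of the start are shown for the 3 lower members with a match in that stretch, and for Atp5f1b, the most abundant member, which had none there. Capitals mark the NRF1 motif.
Sdha (complex II, lower; chr13:74350241-74350360, minus strand): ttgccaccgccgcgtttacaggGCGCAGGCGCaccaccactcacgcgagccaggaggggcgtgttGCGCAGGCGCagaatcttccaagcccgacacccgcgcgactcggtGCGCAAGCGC
Ndufa5 (complex I, lower; chr6:24527691-24527810, minus strand): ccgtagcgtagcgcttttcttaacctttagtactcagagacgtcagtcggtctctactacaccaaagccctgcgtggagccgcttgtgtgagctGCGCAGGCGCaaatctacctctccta
Atp5f1c (complex V, lower; chr2:10080433-10080552, minus strand): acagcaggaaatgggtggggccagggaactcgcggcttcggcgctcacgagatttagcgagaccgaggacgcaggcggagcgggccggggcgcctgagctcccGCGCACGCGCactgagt
Atp5f1b (complex V, not called; chr10:128083187-128083306, plus strand): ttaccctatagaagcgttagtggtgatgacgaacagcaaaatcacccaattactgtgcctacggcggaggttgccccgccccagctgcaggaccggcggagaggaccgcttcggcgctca
Sdha's stretch holds the motif 3 times, with first bases 98, 55 and 10 before the start. These are matches of letters and do not show binding.

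Complex I, the entry point for electrons from NADH, had 3 lower members of 38 tested and 35 that were not called. Its share of calls was 7.89%, against 34.3% of all genes tested (17.9% lower). Ndufv3, an accessory subunit of the NADH-oxidising arm, was at 35.7, 26.2 and 44.3 CPM in WT replicates 1, 2 and 3 and at 22.6, 17.6 and 25.5 CPM in the dKO replicates. The genotypes did not overlap, with WT replicate 2 just above dKO replicate 3. Its log2 fold change was -0.69 (SE 0.202, adjusted p = 0.0266). Ndufv2, a core iron-sulfur subunit of the same arm, was at 51.5, 55.3 and 61.4 CPM in WT and 44.7, 44.8 and 46.6 CPM in dKO. The genotypes did not overlap and the dKO libraries lay close together, for a log2 fold change of -0.31 (SE 0.102, adjusted p = 0.0445). Ndufa5, an accessory subunit of the arm that binds coenzyme Q, was at 11.1, 8.28 and 14.3 CPM in WT and 7.11, 5.83 and 8.41 CPM in dKO. WT replicate 2 lay below dKO replicate 3, and the log2 fold change was -0.65 (SE 0.222, adjusted p = 0.0479). All 3 calls were lost without WT replicate 3 or without dKO replicate 1 or 2. The Ndufv3 and Ndufa5 calls were also lost without WT replicate 1, the Ndufv2 and Ndufa5 calls without dKO replicate 3 and with library totals, and the Ndufv2 call with RLE factors and without a low-count filter (adjusted p over alternatives 0.000261 to 0.0908 for Ndufv3, 0.0171 to 0.158 for Ndufv2 and 0.00356 to 0.154 for Ndufa5).

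The core complex I subunits other than Ndufv2, which hold the flavin and iron-sulfur centres, were not called, though Ndufs7 was lower without WT replicate 2 (log2 -0.52, adjusted p = 0.0184). Ndufs1, the largest iron-sulfur subunit, was at 123, 134 and 127 CPM in WT and at 127, 127 and 123 CPM in dKO. The genotypes overlapped, with dKO replicate 3 just below the lowest WT library, and the log2 fold change of -0.03 had a 95% confidence interval of -0.20 to 0.15. Ndufv1, which binds NADH and flavin, had a log2 fold change of 0.12 (interval -0.19 to 0.42). Ndufs3, Ndufs7 and Ndufs8 had log2 fold changes of -0.08 (SE 0.131), -0.30 (SE 0.226) and 0.13 (SE 0.237).

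Among 29 accessory subunits of complex I, 2 were lower (Ndufv3 and Ndufa5) and 27 were not called. The share called was 6.90%, against 34.3% of all genes tested, and the median log2 fold change was -0.08. Ndufa8, an accessory subunit facing the intermembrane space, had a log2 fold change of -0.66 (SE 0.254, adjusted p = 0.0779), and was called lower by DESeq2, without WT replicate 2 and with a correction for gene length (adjusted p over alternatives 0.00103 to 0.211). It was at 28.8, 19.0 and 40.9 CPM in WT and 16.2, 18.4 and 21.4 CPM in dKO, so that WT replicate 2 lay inside the dKO range. Ndufa9, an accessory subunit of the arm that binds coenzyme Q, was not called (log2 -0.28, SE 0.138, adjusted p = 0.142), though it was without WT replicate 2 (adjusted p = 0.0126) and with the length correction (adjusted p = 0.0488), and Ndufs4, another accessory subunit, was lower without WT replicate 2 alone (adjusted p = 0.0385). The largest positive value in complex I was that of X-linked Ndufa1 (log2 0.36, SE 0.259, adjusted p = 0.319).

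Of the 4 complex I genes that are copies of another member, Ndufb4c and Ndufb4b were tested and were not called. Ndufb4c is classed as a processed pseudogene. Ndufb4c had 19.6 ± 8.19 CPM in WT (SD, n = 3) and 18.1 ± 6.17 CPM in dKO, and Ndufb4b had 2.04 ± 0.532 and 1.80 ± 0.834 CPM. Ndufb4 itself had 11.6 ± 7.20 and 9.57 ± 4.58 CPM. Reads of near-identical copies are divided by a model, so the split among these genes is uncertain. The other 2 copies, Ndufs6b and Ndufa11b, had at most 3 counts in any library and were not tested.

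Complex II, succinate dehydrogenase, which also acts in the citric acid cycle, had 1 lower member of 4 (25.0%, against 34.3% of all genes called). Sdha, the flavin-carrying catalytic subunit, was at 262, 291 and 287 CPM in WT and at 234, 232 and 234 CPM in dKO. All dKO libraries lay below all WT libraries and within a narrow range, for a log2 fold change of -0.26 (SE 0.0797, adjusted p = 0.0313). The call was lost without WT replicate 3 and without any 1 dKO replicate, with library totals and without a low-count filter (adjusted p 0.0134 to 0.135 over alternatives). Sdhb, the iron-sulfur subunit, was at 55.3, 43.2 and 70.6 CPM in WT and 40.5, 38.1 and 46.5 CPM in dKO. WT replicate 2 lay inside the dKO range, and the log2 fold change of -0.43 was not called (SE 0.171, adjusted p = 0.0783). Sdhb was called lower without WT replicate 2, without a low-count filter and with the length correction (adjusted p 0.00183 to 0.227 over alternatives). The membrane anchors Sdhc and Sdhd had log2 fold changes of 0.06 (interval -0.23 to 0.35) and -0.04 (interval -0.30 to 0.21).

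Complex III had 1 lower member of 8 (12.5%, against 34.3% of all genes called). Uqcrc2, a core subunit on the matrix side, was at 168, 164 and 179 CPM in WT and at 140, 136 and 135 CPM in dKO. The genotypes were well apart and each spanned a narrow range, for a log2 fold change of -0.31 (SE 0.0786, adjusted p = 0.0133), a level in dKO 19.5% below that in WT. The call was lost without any 1 dKO replicate and held in the other 11 of 14 alternatives (adjusted p 0.00167 to 0.0769). Its partner core subunit Uqcrc1 had a log2 fold change of -0.08 (interval -0.34 to 0.17) and Uqcrfs1, the Rieske iron-sulfur protein, of 0.11 (interval -0.32 to 0.53). The 5 small subunits Uqcrb, Uqcrh, Uqcrq, Uqcr10 and Uqcr11 were not called and went from -0.34 (Uqcrb) to 0.42 (Uqcr10).

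In complex IV, cytochrome c oxidase, 0 of 11 widely expressed subunits were called, against 34.3% of all genes tested. Of these 11, 0 were at an unadjusted p under 0.05 and 0 were called by DESeq2. Their median log2 fold change was -0.16, from -0.43 for Cox7a2 to 0.10 for Cox8a. Cox4i1, the largest nuclear-encoded subunit of the complex, was at 180, 122 and 237 CPM in WT and at 144, 131 and 188 CPM in dKO. The WT libraries spanned the whole dKO range, and the log2 fold change was -0.22 (SE 0.242). Cox6b1 and Ndufa4 had values of -0.25 and -0.26 with SEs of 0.250 and 0.272.

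The 1 called gene of complex IV was Ndufa4l2, a relative of Ndufa4 that hypoxia induces in many cell types. It was at 3.97, 3.14 and 7.68 CPM in WT and at 2.42, 1.96 and 2.15 CPM in dKO. Its counts ran from 38 to 140 a library. The genotypes did not overlap, and WT replicate 3 stood well above the other 5 libraries. Its log2 fold change of -1.17 (SE 0.335, adjusted p = 0.0242) was the largest in size among the 83 members, and was -0.71 without WT replicate 3, where the call was lost, as it was without any 1 dKO replicate (adjusted p 0.000675 to 0.0769 over alternatives). In TPM, which takes length into account, Ndufa4l2 made up 3.75 ± 0.821% of the Ndufa4 and Ndufa4l2 sum in WT and 2.50 ± 0.991% in dKO (SD, n = 3 each).

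Isoforms of complex IV known from lung, heart, muscle or testis ranged from no reads to 29.2 TPM. Cox4i2, the lung isoform of Cox4i1, had 1.62 ± 0.461 TPM in WT and 2.09 ± 1.35 TPM in dKO and was not called (log2 0.35, SE 0.581). Cox7a1, the heart and muscle isoform of Cox7a2, had 28.5 ± 17.2 and 29.2 ± 11.8 TPM and was not called (log2 0.23, SE 0.383). It made up 12.1 ± 4.17% of the Cox7a1 and Cox7a2 sum in WT and 17.0 ± 1.13% in dKO. Cox7a2l, a relative of Cox7a2, had a log2 fold change of 0.09. The muscle isoforms Cox6a2 and Cox8b and the retrocopy Cox6c2 had 0 counts in every library, which allows up to 3 counts in each, or 0.120 to 0.163 CPM, for counting error only. The testis isoform Cox8c had 1 count in the WT libraries together and 2, 0 and 6 counts in the dKO libraries. These 4 were not tested. The remaining member without a test was a second Ensembl entry for Atp5po with 0 counts throughout.

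The testis relatives Cox7b2 and Ndufb11b, which the member rule leaves out and whose rise in dKO was known beforehand, were set beside the subunits they resemble. Cox7b2 was listed at 0.73, 1.16 and 0.68 TPM in WT and at 73.7, 76.2 and 123 TPM in dKO, beside 98.8 to 182 TPM of Cox7b in WT and 113 to 254 TPM in dKO. Ndufb11b was at 1.92, 1.00 and 2.51 TPM in WT and 76.0, 67.5 and 69.5 TPM in dKO, above the 49.6 to 53.7 TPM of Ndufb11 in the same dKO libraries. Cox7b and Ndufb11 themselves were not called (log2 -0.16 and -0.04, SE 0.329 and 0.181). Reads of close relatives can be shared, so these shares are uncertain. Cox6b2, the testis relative of Cox6b1, was not called (log2 0.55, SE 0.227, adjusted p = 0.0904), and was called higher in 4 of 14 alternatives, among them that without WT replicate 3 (adjusted p 0.0112 to 0.273).

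Complex V had 2 lower members of 18 tested (11.1%, against 34.3% of all genes called), both parts of its stalks. Atp5pb, subunit b of the peripheral stalk, was at 198, 209 and 204 CPM in WT and at 160, 156 and 171 CPM in dKO. The gap between genotypes was wider than the range within either, and the log2 fold change was -0.33 (SE 0.0794, adjusted p = 0.0111), the smallest p among the members. The call was lost without dKO replicate 1 or 2 (adjusted p 0.00358 to 0.0761 over alternatives). Atp5f1c, the gamma subunit that turns inside the catalytic head, was at 181, 183 and 203 CPM in WT and at 147, 146 and 171 CPM in dKO. The genotypes did not overlap, and the log2 fold change of -0.29 (SE 0.0958, adjusted p = 0.0426) was not called with library totals, without WT replicate 1 or 3 and without dKO replicate 1 or 2 (adjusted p 0.00695 to 0.176 over alternatives).

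**Figure D2:**
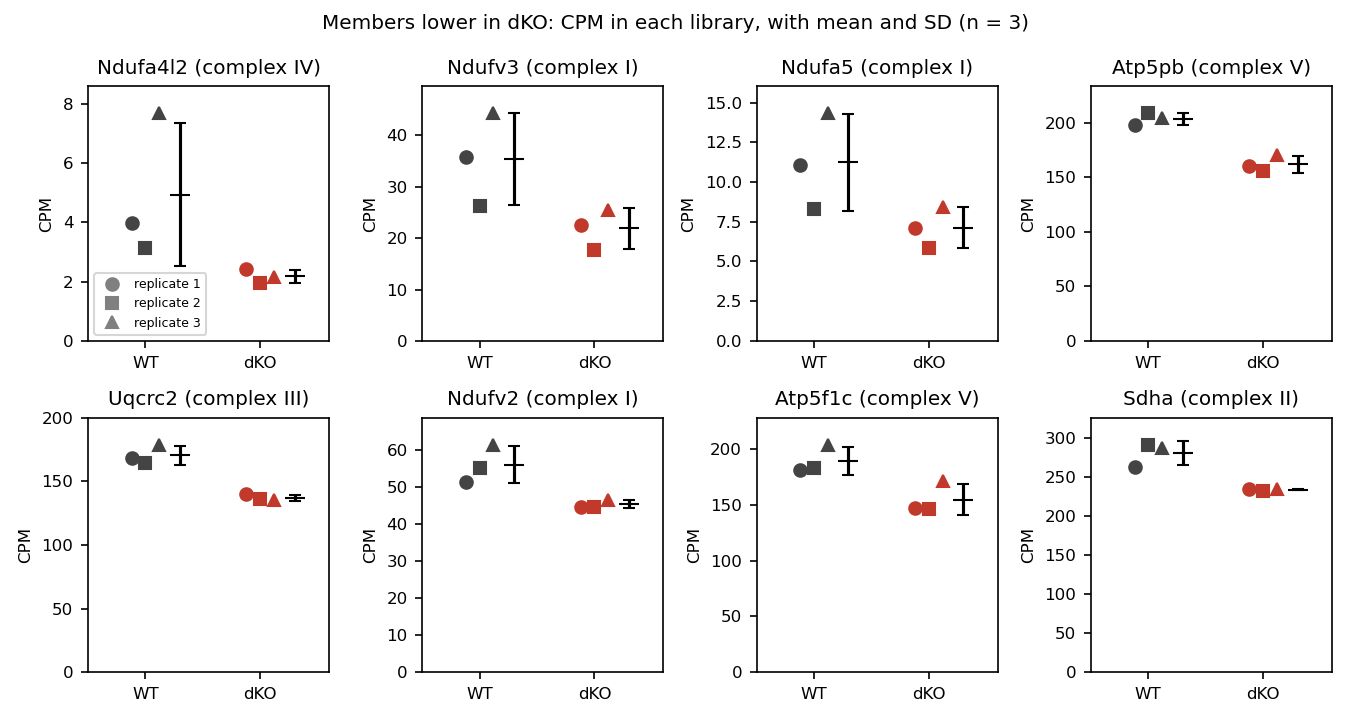
CPM of the 8 lower members in each library, with marker shapes for the replicate number and the mean and SD of 3 libraries beside them. Each panel has its own CPM axis from 0, and the genotypes overlap only for Ndufa5.

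The 2 subunits that form the ring of the catalytic head of ATP synthase were not called. Atp5f1b, the catalytic beta subunit, was at 1457, 1390 and 1595 CPM in WT and at 1459, 1446 and 1561 CPM in dKO. The genotypes overlapped, and the log2 fold change of 0.01 had an interval of -0.19 to 0.21. Atp5f1a, the alpha subunit, was at 1081, 1064 and 1099 CPM in WT and 1027, 1004 and 986 CPM in dKO. Every dKO library lay below every WT library by a small margin, and the log2 fold change of -0.10 (interval -0.28 to 0.07) was not called. Atp5f1d and Atp5f1e, small subunits of the central stalk, had values of 0.06 and 0.07.

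The other peripheral stalk genes Atp5pf, Atp5pd and Atp5po had log2 fold changes of -0.47 (SE 0.223), -0.32 (SE 0.233) and 0.02 (SE 0.216), and none of the 3 was called. Atp5pf was lower without dKO replicate 3 (adjusted p = 0.0428) and with the length correction (adjusted p = 0.00680), and Atp5pd with the length correction (adjusted p = 0.0424). The c-ring, which turns as protons pass, is encoded by 3 genes with the same mature protein. Atp5mc1 and Atp5mc3 made up 47.3 ± 3.31% and 49.3 ± 1.94% of their summed TPM in WT and 48.7 ± 2.07% and 48.1 ± 1.40% in dKO (SD, n = 3 each). Atp5mc3 was not called (log2 -0.35, SE 0.208) but was lower with the length correction (adjusted p = 0.0173). Atp5mc2 supplied the rest of the sum, with every dKO library below every WT library in CPM but no call (log2 -0.34, SE 0.155, adjusted p = 0.121). The small membrane subunits Atp5me, Atp5mf, Atp5mg, Atp5mj and Atp5mk went from -0.39 (Atp5mg) to 0.47 (Atp5me), and the inhibitor Atp5if1 had a value of -0.08, with 0 of these 6 called by edgeR or DESeq2 and 0 at an unadjusted p under 0.05. With the length correction Atp5me was higher (adjusted p = 0.0437) and Atp5mk lower (adjusted p = 0.0479).

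Levels differed widely between subunits. In WT, mean TPM of the tested members went from 1.62 (Cox4i2) to 1344 (Atp5f1b), and 732 TPM of Atp5f1a and 721 TPM of Cox7c followed. Summed over members, WT libraries held 19421, 13635 and 23854 TPM and dKO libraries 16449, 15933 and 21205 TPM. These sums include the pseudogene Ndufb4c, at 341 ± 198 TPM in WT and 276 ± 119 TPM in dKO (SD, n = 3 each). The lowest and the highest sum were both WT, so the genotypes overlapped fully. By complex, the mean sums in dKO over those in WT were 0.936 for complex I, 0.954 for complex II, 1.01 for complex III, 0.959 for complex IV and 0.915 for complex V. In complex V the sums were 7713 ± 1572 TPM in WT and 7060 ± 855 TPM in dKO (SD, n = 3 each), a difference smaller than the spread between WT libraries.

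The members moved together between libraries of the same genotype. Among the 3 WT libraries, replicate 3 was the highest for 76 of the 83 members and replicate 2 the lowest for 74, and among the dKO libraries replicate 3 was the highest for 77. Median deviations from each gene's mean over the 6 libraries, on the scale of log2(CPM + 0.5), were 0.05 in WT replicate 1, -0.40 in WT replicate 2 and 0.52 in WT replicate 3. The dKO medians, in the same order, were -0.14, -0.23 and 0.30. Over all genes tested these medians stayed between -0.01 and 0.02.

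**Figure D3:**
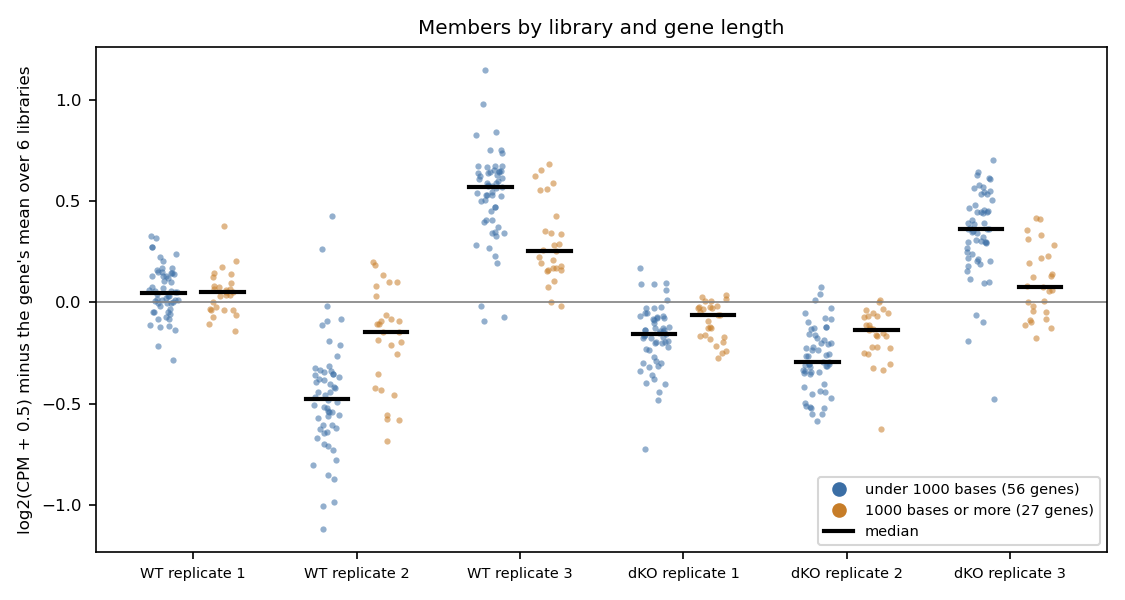
Deviation of each tested member from its own mean over the 6 libraries, on the scale of log2(CPM + 0.5), split by gene length, with medians as bars. Members under 1000 bases lay high in WT replicate 3 and dKO replicate 3 and low in WT replicate 2, and longer members did so by less.

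Gene length went with the size of this movement. Most members are short: 67.5% of those tested were under 1000 bases by the deposited gene length, against 8.37% of all genes tested. The median deviation of the 56 short members was -0.48 in WT replicate 2 and 0.57 in WT replicate 3, and that of the 27 longer members -0.15 and 0.25. All 1316 tested genes under 1000 bases had medians of -0.26 and 0.25 in the same libraries, and all tested genes of 1000 bases or more had 0.02 and 0.01. The median SD within genotypes, on the same log2 scale, was 0.45 for short members and 0.18 for longer members. It was 0.33 for all tested genes under 1000 bases and 0.18 for all genes tested. Across the 83 members, Spearman's rho between length and this SD was -0.62, and it was -0.26 over all genes tested. Both values are descriptions over genes that share the same 6 libraries. The share of ribosomal protein counts was also lowest in WT replicate 2 and highest in WT replicate 3 (4.94%) and dKO replicate 3 (4.73%). Its part in the result was not tested.

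Short members were measured less closely, with a median SE of 0.292 on the log2 scale against 0.129 for longer members. Of the 8 lower members, 6 were among the 27 members of 1000 bases or more (22.2% of them), where 35.1% of all tested genes of that length were called. The other 2 were among the 56 shorter ones (3.57%), where 25.5% of all tested genes under 1000 bases were called. Of the 75 members that were not called, 18 had a 95% confidence interval inside a 1.5-fold change in either direction, and 60 inside a 2-fold change. Among the 21 longer ones these numbers were 13 and 21, and among the 54 shorter ones 5 and 39. The intervals of the remaining short members reached past 2-fold. With a length trend removed from each library, 15 members were lower and 1 was higher (Atp5me, of the membrane part of ATP synthase), where 38.3% of all genes were called, and all 8 members called without that correction were among them.

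Genes that build the complexes gave more rises than falls among those called. Of 58 assembly factors on the list, 56 were tested, 11 were higher, 3 were lower and 42 were not called, with a median log2 fold change of 0.20. Their share of calls, 25.0%, was below the 34.3% over all genes, where 16.4% were higher and 17.9% lower. Ndufaf1, which assembles the membrane arm of complex I, was at 21.7, 21.1 and 20.0 CPM in WT and at 39.6, 35.5 and 41.6 CPM in dKO. The genotypes were far apart, with a log2 fold change of 0.90 (SE 0.107, adjusted p = 0.000261). Tmem186, of the same assembly machinery, went the other way, from 39.0, 31.1 and 49.0 CPM to between 17.9 and 22.7 CPM (log2 -1.02, SE 0.175, adjusted p = 0.00202). Nubpl, which delivers iron-sulfur clusters to complex I, rose by 0.51 on the log2 scale. Dmac2, which takes part in building the distal arm of complex I, rose by 0.43.

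Complex IV factors gave 4 rises and 0 falls among 22 tested, or 18.2% called higher against 16.4% of all genes. Coa7, a haem-binding assembly protein, was at 21.6, 18.4 and 24.9 CPM in WT and 42.2, 40.5 and 50.1 CPM in dKO. The dKO libraries all lay well above the WT libraries, with a log2 fold change of 1.04 (SE 0.139, adjusted p = 0.000514). Cox14, which regulates synthesis of the mitochondrially encoded Cox1 protein, rose by 0.83 (SE 0.179). Cox19, which helps deliver copper, rose by 0.80 (SE 0.213), and Cox10, which makes the haem of the complex, by 0.56 (SE 0.103). Bcs1l, which inserts the Rieske protein into complex III, rose from 13.4 ± 0.285 to 22.2 ± 3.04 CPM (log2 0.73, SE 0.130), and Atpaf1, a chaperone of the ATP synthase head, by 0.45 (SE 0.121). Sdhaf4, a complex II factor, fell by 0.63 (SE 0.198). The calls of Ndufaf1, Tmem186, Dmac2, Coa7, Cox14, Cox10 and Bcs1l held in all 14 alternatives. Those of Nubpl (without dKO replicate 1, highest adjusted p 0.0519), Cox19 (without WT replicate 1, dKO replicate 1 or dKO replicate 3, 0.0634), Atpaf1 (without WT replicate 1 or dKO replicate 3, 0.0663) and Sdhaf4 (without WT replicate 1 or 3 or any 1 dKO replicate, 0.117) were lost where named.

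**Figure D4:**
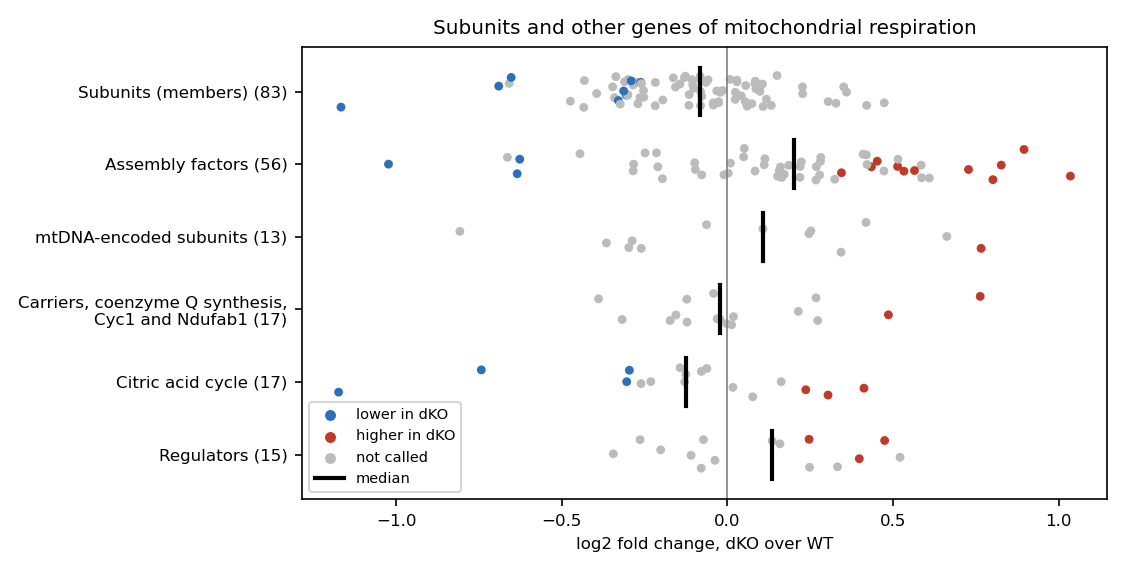
Log2 fold change in dKO over WT of the members and of 5 other groups of respiration genes, 1 point per tested gene, with blue for lower, red for higher, grey for not called and a bar at each median. Assembly factors hold 11 red and 3 blue points, the members 8 blue and 0 red.

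The subunits made from mitochondrial DNA gave 1 call among 13 (7.69%, against 34.3% of all genes tested). mt-Atp8, a small subunit of ATP synthase, rose from 44.9, 70.5 and 37.0 CPM to 89.4, 71.3 and 98.8 CPM (log2 0.77, SE 0.234, adjusted p = 0.0363), and the call was lost in 7 of 14 alternatives (adjusted p 0.000771 to 0.484), among them those without WT replicate 1 or 3 or dKO replicate 1 or 3. The most abundant, mt-Co1, was not called (log2 -0.37, SE 0.193), with 9884 ± 3150 CPM in WT against 7675 ± 311 CPM in dKO (SD, n = 3 each). Reads of these genes can be shared with copies in the nuclear genome, and transcripts of the compact mitochondrial genome overlap.

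A list of 17 electron carriers, genes of coenzyme Q synthesis and the 2 subunits outside the symbol rule gave 2 higher genes and 15 that were not called (11.8% called, against 34.3% of all genes tested). Neither subunit was called: Cyc1, the cytochrome of complex III, had a log2 fold change of 0.02 (interval -0.21 to 0.25) and Ndufab1, the acyl carrier protein of complex I, of -0.02 (interval -0.44 to 0.40). Both higher genes concern coenzyme Q: Coq8a, a kinase-like regulator of its synthesis, rose by 0.76 (SE 0.145) and Coq3, a methyltransferase of the pathway, by 0.49 (SE 0.122). Coq8a held in all 14 alternatives and Coq3 was lost without WT replicate 1 and without dKO replicate 3 (highest adjusted p 0.0542).

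The 17 genes of the citric acid cycle and pyruvate dehydrogenase split into 3 higher, 4 lower and 10 not called. Of these genes 41.2% were called, against 34.3% of all genes tested (16.4% higher and 17.9% lower). Sucla2, a succinyl-CoA synthetase subunit on chromosome 14, fell from 64.6 ± 5.40 to 28.7 ± 1.44 CPM (log2 -1.17, SE 0.106). Both knocked-out genes lie on that chromosome. Over all genes 5392 of 15714 were called, and 4920 of 15168 without chromosomes 14 and Y. What part this had in the fall of Sucla2 was not tested. Pdhb, also on chromosome 14, was not called (log2 -0.13). X-linked Pdha1, of pyruvate dehydrogenase, fell from 420 ± 44.9 to 251 ± 4.77 CPM (log2 -0.74, SE 0.0950). Ogdh, of the oxoglutarate dehydrogenase complex, rose by 0.41 (SE 0.0880), and citrate synthase (Cs) by 0.30 (SE 0.0837). The Cs call was lost without WT replicate 1 or 3 and without dKO replicate 1 or 2 (adjusted p 0.00148 to 0.109 over alternatives).

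Of 15 tested regulators of mitochondrial gene expression, 3 rose and 12 were not called, or 20.0% higher against 16.4% of all genes. Pprc1, a coactivator of the PGC-1 family that works with NRF1, rose from 300 ± 19.3 to 417 ± 30.4 CPM (log2 0.47, SE 0.0919), and Twnk, the helicase that copies mitochondrial DNA, by 0.40 (SE 0.0907). Tfam, which packages mitochondrial DNA and starts its transcription, rose by 0.25 (SE 0.0841, adjusted p = 0.0483), a call that was lost in 7 of 14 alternatives, among them those without WT replicate 1 or 3 or any 1 dKO replicate (highest adjusted p 0.165). Polg, the polymerase of mitochondrial DNA, was not called (log2 -0.26, SE 0.0952, adjusted p = 0.0587), and was called lower in 3 of 14 alternatives, among them that without WT replicate 2 (adjusted p 0.00544 to 0.235).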

How the data were processed

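The authors deposited 1 table of 57180 genes. Per the file headers it holds expected counts (RSEM-style estimated counts), of which 24.6% of the values above 0 were not whole. The submitters' processing notes also name FastQC, HISAT2 2.1.0, DESeq 1.26.0 and GRCm39, without roles. The sources used here do not say whether counting used strand. The deposited TPM values were used for levels between genes only, and the deposited gene length for length checks. The authors' deposited comparison (fold, log2 fold change, p-value and adjusted p-value) is quoted only where named.

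Counts were rounded and tested with edgeR 4.0.16 in R 4.3.3 (filterByExpr, TMM, robust quasi-likelihood fit on genotype, all 6 libraries), which left 15714 genes. The SE is the log2 fold change divided by the root of the F statistic, and 95% intervals use the fit's t distribution. The 14 alternatives include DESeq2 1.42.0. Steps were tested on simulated data, with 50 changed genes for each size of change. None of the 1.25-fold changes was recovered (0%). Recovery was 46% for changes of 1.5-fold, rose to 70% when the change was 2-fold, and reached 94% for 4-fold changes. A gene that was not called can therefore still differ by a small fold. Chromosomes came from GENCODE M21 (GRCm38) by identifier. Plots used Python 3.11.15 and matplotlib 3.10.9.

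The members and lists were chosen with earlier results of these data known. Named genes are, in each complex, members called at 1.5-fold or more and the 4 with the smallest p, all tissue isoforms, and up to 4 genes with the smallest p of each other list; the other called members and those that complete a group were added with their values seen. The values of 1 member are not reported here; counts and medians include it.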

Additional observations from a re-analysis of the deposited data

How the results depend on the processing

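Over 14 alternatives the members called in dKO against WT ranged from 0 to 18, and a call in the higher direction appeared with 2 of them (Atp5me). With the replicate block 18 members were called (5 in complex I, 2 in II, 2 in III, 2 in IV and 7 in V), 17 lower and Atp5me higher, where 43.2% of all genes were called. All 8 members of the report were among them, with Ndufa8, Ndufa9, Sdhb, Uqcrb, Cox7a2, Atp5mc3, Atp5mg, Atp5pd and Atp5pf. Correlations of same-numbered libraries' deviations were -0.08, 0.27 and 0.33. WT replicates 2 and 3 each correlated best with the dKO replicate of the same number, and WT replicate 1 with dKO replicate 3 (0.16). The labels do not say whether same-numbered samples were paired, and pairing was not tested. With length trend offsets 16 were called (5 in I, 2 in II, 1 in III, 1 in IV and 7 in V). With library totals 4 were called, where 34.5% of all genes were (1 in I, 0 in II, 1 in III, 1 in IV and 1 in V), 11 at an unadjusted p under 0.05. Leaving out 1 library gave 0 to 13 calls, with 0 to 7 in complex I, 0 to 2 in II, 0 to 1 in III, 0 to 1 in IV and 0 to 3 in V, and a median log2 fold change from -0.29 (without WT replicate 2) to 0.12 (without WT replicate 3). Leaving out a library leaves fewer samples, and the cause of the differences between these settings was otherwise not tested. RLE factors, DESeq2, no low-count filter, a mean CPM of 1 or more and leaving out chromosomes 14 and Y gave 7 to 9 calls. In these settings 20.1% (no low-count filter) to 35.6% (mean CPM of 1 or more) of all genes were called. Many members changed sign between settings. Of the 83 tested, 55 had a negative log2 fold change in the reported fit, 26 without WT replicate 3 and 40 without dKO replicate 2. Among only the genes named by the rule above, those that were not called and changed sign in some setting were Sdhd (0.019 with library totals, -0.12 to 0.021 over the settings that leave out 1 library), and, over the same left-out libraries, Sdhc (-0.033 to 0.16), Cox7a1 (-0.070 to 0.60), Sdhaf1 (-0.0052 to 0.26), Cox4i2 (-0.25 to 0.76), Cox6b1 (-0.44 to 0.056), Ndufa4 (-0.47 to 0.047) and Uqcrb (-0.56 to 0.012).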
